A study of Mus musculus with 2 samples.

Results

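Pi16-positive fibroblasts were examined in single-cell RNA sequencing of the temporomandibular joint (TMJ), the joint between the lower jaw and the skull. They were 230 of 10109 cells kept from 2 libraries, 169 of 4352 in WT and 61 of 5757 in the Prox1 mutant. A cell was a member when it held at least 20 unique molecular identifiers (UMIs, each one captured RNA molecule) of Dcn, Lum and Col3a1 together, at least 1 of Pdgfra, none of Ptprc or Pecam1, and at least 2 of Pi16 and Dpp4 together. Kept cells had at least 500 detected genes and under 10% mitochondrial UMIs. The matrix genes and Pdgfra mark fibroblasts, Ptprc marks leukocytes and Pecam1 marks endothelium, so that the rule asked for a fibroblast carrying Pi16 or Dpp4.

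Both libraries came from mice labelled C57BL/6, 8 to 10 weeks old, whose joints had received complete Freund's adjuvant (CFA), an oil emulsion with killed mycobacteria that causes local inflammation. The first library is labelled WT and the other Prox1 mutant, which the study's methods describe as a heterozygous line (Prox1+/-). Neither an untreated joint nor a vehicle injection was among the samples analysed here, so that all values are from inflamed joints. Each genotype was 1 library, and how many mice went into it was not given in the sources used here. There was therefore no replicate error and no test between genotypes. All intervals are 95% intervals that cover counting error only, and genotype, animal, injection and library cannot be told apart.

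Fibroblasts that express Pi16 and Dpp4 are known from many mouse tissues, where they lie in the adventitia around vessels and in the loose connective tissue between organs. Pi16 encodes peptidase inhibitor 16, a secreted or membrane-anchored protein, and Dpp4 encodes a surface peptidase that trims chemokines and hormones. Such cells are described as a shared fibroblast state with progenitor features, rich in elastic fibre proteins and complement, as distinct from fibroblasts specialised for tendon, cartilage or the synovial lining. PROX1 is the transcription factor that gives lymphatic endothelium its identity, and the adventitia is where many lymphatic vessels run.

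The members were deeply sequenced. The 169 WT members held 2771096 UMIs in all, with a median of 14631 per cell (2454 to 56360), and the 61 mutant members held 1280488, with a median of 18102 (2000 to 70529). The median cell had 4143 detected genes in WT and 4859 in the mutant, and mitochondrial medians were 2.0% and 1.89%. The deepest single cell contributed 2.03% of the WT UMIs and 5.51% of the mutant UMIs, so that pooled levels in the mutant rested more on single cells. Of 10 barcodes that occurred in both libraries as deposited, 4 remained among kept cells, and 1 was a member in either library.

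Prox1 itself was nearly absent from the members. It had 2 UMIs in 2 WT members and 5 UMIs in 1 mutant member. In the Pecam1-positive endothelial cells, where lymphatic endothelium belongs, Prox1 had 304 UMIs in 39 of 1019 WT cells (40.8 CPM, UMIs scaled to a total of 1000000) and 96 UMIs in 18 of 545 mutant cells (23.1 CPM). The labels do not say which part of the gene the mutation changes, so that these counts are no check of the genotype label. The members were thus fibroblasts in which Prox1 was detected in no more than 2 cells of a library.

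The label was held up against its 5 marker genes, Pi16 (chr17:29317680-29330593), Dpp4 (chr2:62330073-62412231), Clec3b (chr9:123150946-123157432), Mfap5 (chr6:122505845-122529290) and Pdgfra (chr5:75152292-75198215), in GENCODE M21 coordinates on GRCm38. Pi16, Dpp4 and Pdgfra were part of the rule, and their values are a description. Clec3b, which encodes the plasminogen-binding protein tetranectin, and Mfap5, which encodes a glycoprotein of elastic microfibrils, were not. Both Clec3b and Mfap5 were detected in 158 of 169 WT members (93.5%) and 55 of 61 mutant members (90.2%), and no member lacked both, which allows a share of up to 2.16% in WT and 5.87% in the mutant. The markers outside the rule therefore went with the label in both libraries.

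Pi16 was at 2089.8 CPM in the WT members and 1485 CPM in the mutant members, with a median of 16 UMIs per cell (0 to 214) and 17 (0 to 184). Dpp4 was at 187 and 156 CPM, with medians of 1 (0 to 25) and 2 (0 to 23). Pi16 and Dpp4 were both detected in 88 WT members (52.1%) and 36 mutant members (59.0%). Pi16 without Dpp4 was seen in 75 and 21 members, and Dpp4 without Pi16 in 6 and 4, so that nearly every member entered through Pi16. Clec3b was at 1209 and 866 CPM, with medians of 16 (0 to 81) and 17 (0 to 61) UMIs, against 148 and 272 CPM in Pi16-negative fibroblasts. Mfap5 was at 1677 and 1164 CPM, with medians of 16 (0 to 231) and 13 (0 to 182), against 142 and 135 CPM. Pi16-negative fibroblasts are here the 192 WT and 132 mutant cells that met the same rule with no UMI of Pi16 or Dpp4. Their pooled RNA also held bone and cartilage markers, at unequal levels in the libraries. The ranges per cell overlapped between the libraries for every marker, and Pdgfra, at 394 and 479 CPM, had medians of 5 (1 to 25) and 6 (1 to 53).

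**Figure D1:**
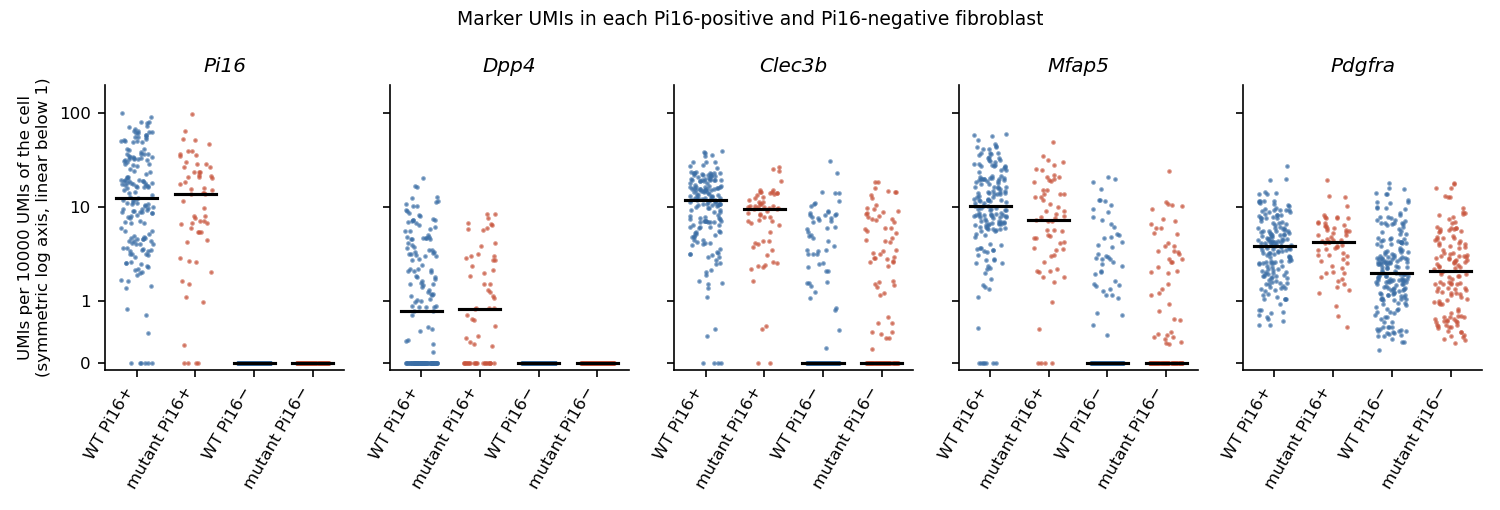
UMIs of Pi16, Dpp4, Clec3b, Mfap5 and Pdgfra per 10000 UMIs of the cell (symmetric log axis, linear below 1) in the Pi16-positive (Pi16+) and Pi16-negative (Pi16-) fibroblasts of the WT (blue) and Prox1 mutant (red) libraries, with a point for each cell and a bar at the median. The median of Pi16 in the members is 12.5 in WT and 13.7 in the mutant, Clec3b and Mfap5 have a median of 0 in Pi16-negative cells, and the absence of Pi16 and Dpp4 there was set by the rule.

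Free RNA in droplets gives low counts of abundant genes in cells that do not make them, and the Ptprc-positive leukocytes (897 in WT, 1216 in the mutant) served as the background. A Pi16 UMI was found in 96.4% and 93.4% of members against 16.1% and 15.7% of leukocytes, whose median depths were 12969 and 8688.5 UMIs. Cells were then thinned to 2000 UMIs, and shallower cells were left out. Pi16 was then detected in 78.7% and 75.4% of members and in 3.91% and 4.32% of leukocytes. At least 2 Pi16 UMIs were held by 36 WT leukocytes (4.01%) and 64 mutant leukocytes (5.26%). Pi16 was at 12.2 and 18.7 CPM in leukocytes, and the ratio of Pi16 to Clec3b UMIs was 15.8 and 7.89 there against 1.73 and 1.72 in the members. The leukocyte ratios rest on only 12 and 37 Clec3b UMIs. In Pecam1-positive cells the ratios were 4.93 and 6.75, on 15 and 8 Clec3b UMIs. The origin of the Pi16 UMIs in these cells was not tested. Detection in the members was far above the leukocyte level for Clec3b (97.6% and 96.7% against 1.34% and 2.38%) and for Mfap5 (95.9% and 93.4% against 3.34% and 5.43%).

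The members were a smaller share of the mutant library. They made up 3.88% of kept cells in WT (3.33 to 4.5) and 1.06% in the mutant (0.811 to 1.36), which differ by -2.82 percentage points (-3.48 to -2.21). The fibroblasts as a whole were also a smaller share, 391 cells (8.98%, 8.15 to 9.87) against 211 cells (3.67%, 3.19 to 4.18). Among those fibroblasts the members were 43.2% in WT (38.3 to 48.3) and 28.9% in the mutant (22.9 to 35.5), a difference of -14.3 points (-21.9 to -6.26). Pi16-negative fibroblasts were 4.41% and 2.29% of kept cells, a difference of -2.12 points (-2.86 to -1.41). A looser rule, with lower minimums for the matrix genes and for Pi16 and Dpp4, was applied after thinning cells to 2000 UMIs. Shallower cells were left out. It found 94 of 3843 cells in WT and 38 of 4488 in the mutant, a difference of -1.60 points. A share of recovered cells depends on the dissociation and on the number of other cells recovered, so that fewer fibroblasts in the tissue and fewer fibroblasts released from it cannot be told apart.

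**Figure D2:**
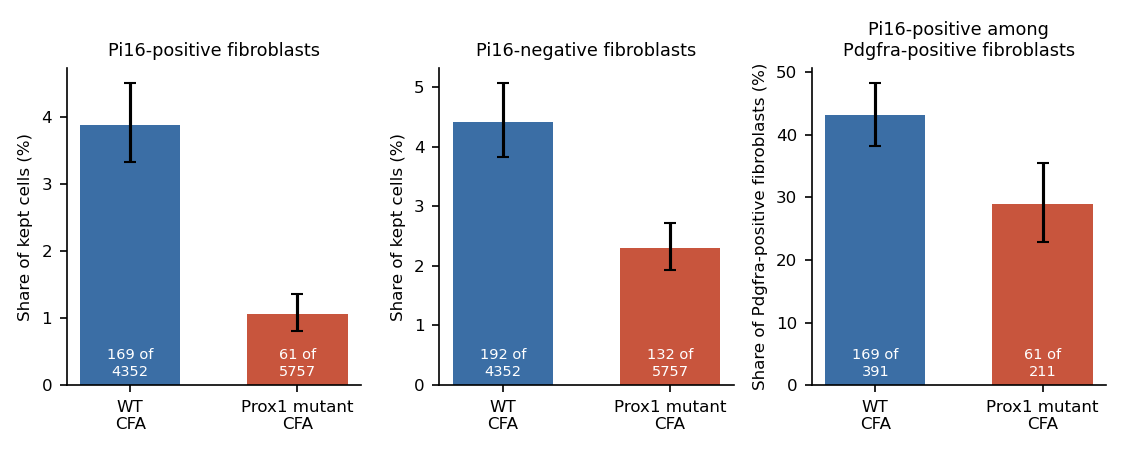
Pi16-positive and Pi16-negative fibroblasts as a percentage of kept cells, and Pi16-positive cells as a percentage of Pdgfra-positive fibroblasts, in the WT and Prox1 mutant libraries after CFA, with exact 95% binomial intervals for counting error and the cell numbers in the bars. In each of the 3 panels the mutant value is the lower, 1.06% against 3.88% for the members.

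The boundary of the rule cut through a continuum. With a sum of Pi16 and Dpp4 of exactly 2 UMIs there were 10 WT and 4 mutant members, just outside it at 1 UMI there were 30 and 18 cells, and 114 WT members (67.5%) and 45 mutant members (73.8%) had at least 10. Just inside, Clec3b had 704 CPM (WT) and 283 CPM (mutant), and just outside 285 and 340 CPM. Mfap5 was at 674 and 298 CPM just inside and 457 and 292 CPM just outside. Members with at least 10 UMIs had 1340.4 and 946 CPM of Clec3b and 1974 and 1417 CPM of Mfap5. In WT the levels of Clec3b and Mfap5 rose from class to class of the sum. Sema3c, a secreted semaphorin, had 76.0 CPM in the WT cells without Pi16 or Dpp4 and 705 CPM in members with at least 10, and 229 and 987 CPM in the mutant. The few mutant cells near the boundary (4 inside, 18 outside) did not separate by Clec3b or Mfap5.

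The most abundant transcripts were those of matrix-producing connective tissue cells. After mitochondrial, ribosomal protein and predicted genes were left out, the members' pooled RNA was led by Malat1, a nuclear non-coding RNA (25581 CPM in WT, 33577 in the mutant), Col3a1, a fibrillar collagen (11457 and 9557), and Dcn, the collagen-binding proteoglycan decorin (9600 and 7159). Next came Gsn, the actin-severing protein gelsolin (7731 and 7674), and Sparc, a collagen-binding glycoprotein (6685 and 4187). Col1a2 (5786 and 4322), Col1a1 (4654 and 3369) and Fn1, fibronectin (4050 and 4450), were in the same group. The list also held 2 complement genes, C3 (2820 and 3996) and Serping1, the C1 inhibitor (3336 and 3260), and the transcription factor Ebf1 (2710 and 3870). Igfbp5, which binds insulin-like growth factors, was at 3920 and 4294 CPM, and Fth1 and Tpt1 had 4957 and 3603 CPM and 4206 and 3247 CPM.

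Set against the Pi16-negative fibroblasts of the same joint, the members were richer in genes of elastic fibres, complement and the vessel-associated fibroblast state, and poorer in genes of tendon, cartilage and bone. Because Pi16 and Dpp4 counts chose both groups, this is a description with no test. Of 8346 genes with at least 50 UMIs over both groups in each library, 278 (3.33%) were at least 2-fold higher in the members in both libraries and 312 (3.74%) at least 2-fold lower, with no single cell holding over 25% of the gene's UMIs in the group with the higher level. A gene near 0 in one group entered only through the other, which fixed its direction, so that the list counts below describe the groups and support nothing. Of the universal fibroblast list, genes known to mark Pi16- and Dpp4-expressing fibroblasts, 18 of 28 tested were higher, Pi16 and Dpp4 themselves among them, and 1 was lower, with a median log2 ratio of 2.25 in WT and 1.60 in the mutant. The 1 lower gene, Aldh1a3, which makes retinoic acid, was at 19.5 and 13.3 CPM in the members against 142 and 137 CPM.

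Genes named by the size of their difference included enzymes, receptors and channels. Cmah, which makes a sialic acid, was at 85.2 CPM in WT members and 142 CPM in mutant members against 0.647 and 1.99 CPM in Pi16-negative cells. Tek, the angiopoietin receptor best known from endothelium, was at 84.1 and 86.7 CPM against 2.59 and 3.18 CPM, although Pecam1 was 0 by the rule. Ace, the angiotensin-converting enzyme, was at 192 and 154 CPM against 17.1 and 19.9. Slc4a10, a bicarbonate transporter, was 6.09 and 7.11 higher on the log2 scale, and Efhd1, a mitochondrial calcium-binding protein, 5.65 and 4.64. Pcolce2, which enhances procollagen processing, was at 445 and 376 CPM against 23.9 and 52.4, and Tmeff2, a transmembrane protein with follistatin-like modules, at 380.0 and 394 against 39.1 and 24.2. The same direction in both libraries was a condition for being counted.

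Elastic fibre genes leaned toward the members. Of 19 tested, 9 were higher and 1 lower, with median log2 ratios of 1.65 and 1.06. Fbn1, fibrillin-1, the core of the microfibril, was at 2107 and 2089 CPM against 424 and 583, and Mfap5 differed by 3.57 and 3.10. Complement genes were higher for 6 of 9 and lower for none, with medians of 2.07 and 1.40, and C3 was 2.81 and 1.92 higher. Cd34, a sialomucin of progenitors and adventitial cells, differed by 2.67 and 1.93, and Ly6a, the Sca-1 antigen, by 1.58 and 1.11. Among the cytokines 3 of 18 were higher and none lower. They included Il33, an alarmin held in the nucleus, at 249 and 264 CPM against 22.6 and 69.5, and Ccl11, which attracts eosinophils, 1.94 and 3.82 higher. Vegfd, a ligand of the lymphatic receptor VEGFR3, was at 65.7 and 56.2 CPM against 7.44 and 11.1 CPM. The list of lymphatic and vascular factors that holds it had 3 of 16 higher and 2 lower, with medians of 0.66 in WT and -0.32 in the mutant.

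**Figure D3:**
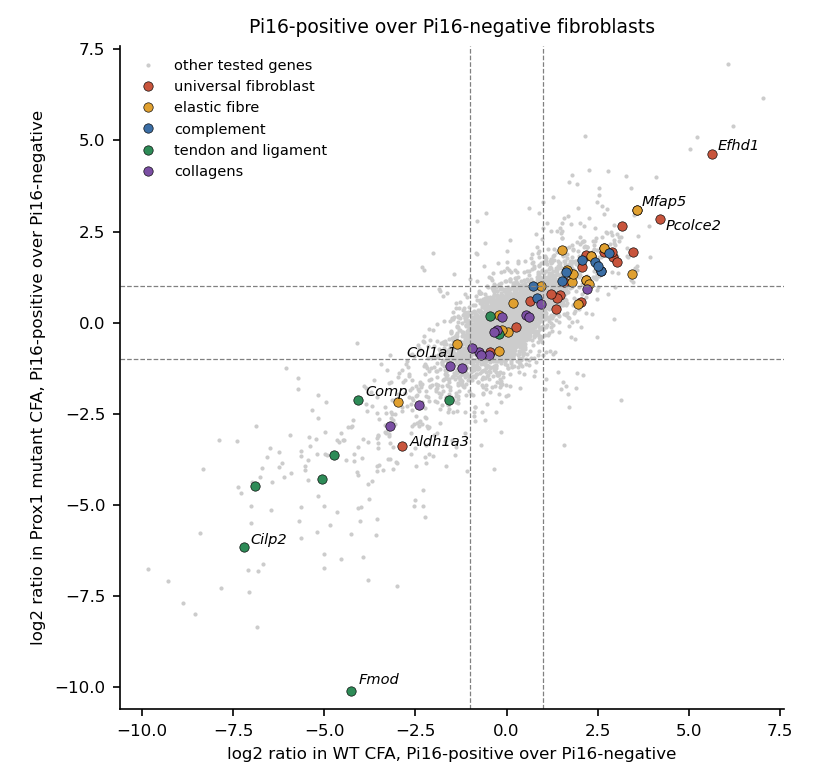
Log2 ratio of pooled CPM in Pi16-positive over Pi16-negative fibroblasts in WT (horizontal) and in the Prox1 mutant (vertical), with a point for each gene with at least 50 UMIs over both groups in each library, Pi16 and Dpp4 left out, and dashed lines at 2-fold. Universal fibroblast, elastic fibre and complement genes lie mostly to the upper right and tendon and ligament genes to the lower left; the groups were chosen on Pi16 and Dpp4 counts.

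Genes of tendon and cartilage lay on the other side. Tendon genes were lower in the members for 6 of 9 and higher for none, with median log2 ratios of -4.27 and -3.63. Scx, the transcription factor of tendon cells, was at 1.08 and 3.12 CPM against 36.2 and 61.5, and Tnc, the matrix protein tenascin-C, at 30.0 and 46.9 against 796 and 581. The 7 chondrocyte markers summed to 49.1 and 33.6 CPM in the members against 1787 and 490.4 CPM, and the 8 bone markers to 112 and 169 CPM against 6315 and 2319 CPM. Acan, the cartilage proteoglycan aggrecan, had 2.17 CPM in WT members and no UMI in mutant members against 298 and 260 CPM. Of the synovial lining genes 2 of 9 were lower and none higher, and Prg4, the joint lubricant lubricin, was at 773 and 1448 CPM against 2395 and 4772. A Prg4 UMI was nevertheless found in more of the members, 62.7% and 73.8% against 34.4% and 45.5%, and in 37.9% and 41.0% against 27.6% and 30.5% after thinning to 2000 UMIs. Cd55, a complement regulator of the same list, lay the other way, at 398 and 383 CPM against 65.7 and 145, and was not counted because 1 cell held 31.2% of its UMIs in the mutant members, the group with the higher level. Collagen genes were lower for 4 of 15, among them Col12a1, which lies on the surface of collagen fibrils, by -3.20 and -2.83, and none was higher. Col1a1 was at 4654 and 3369 CPM against 13557 and 7719, and the myofibroblast list had 4 of 11 lower and none higher, with Postn at 447 and 258 against 1744 and 1148. The other genes with the lowest ratios included Tnn, a tenascin (2.53 and 3.90 CPM against 579 and 603), Kcnq5, a potassium channel (5.05 and 1.56 against 585 and 509), and Adamts18, a matrix protease with 1 UMI in the members of each library.

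Growth factor and protease genes went both ways, beside 3.33% higher and 3.74% lower over all tested genes. Tgfbr2, a receptor for TGF beta, was at 500.2 and 539.6 CPM in the members against 127 and 165 CPM, and was the 1 gene of 19 in the Wnt, BMP and TGF beta list that was higher. The 3 lower genes of that list were the ligands Bmp2 (-2.11 in WT and -1.73 in the mutant) and Tgfb1 (-2.70 and -1.2) and, named after its values were seen, the secreted Wnt modulator Dkk3 (-1.04 and -1.88). Among growth factors 2 of 15 were higher, Igfbp4 (1.75 and 1.17) and Fgf2 (1.5 and 1.51), and 2 were lower, the heparin-binding factors Ptn (-2.25 and -2.58) and Mdk (-1.81 and -1.95). Of 19 proteases and inhibitors 3 were higher, the aggrecanase Adamts5 (1.53 and 2.74), its relative Adamtsl1 (1.97 and 1.96) and Pcolce2, and the inhibitor Serpine2 was lower (-2.12 and -1.32). Tnfaip6, a hyaluronan-binding protein induced in inflammation, was at 2783 and 2444 CPM against 947 and 1219. Acta2, the smooth muscle actin of myofibroblasts, was at 20.2 and 23.4 CPM against 101 and 75.8.

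The members were not uniform. The 10% of members with the highest Pi16 counts held 39.6% of all Pi16 UMIs in WT and 35% in the mutant, and for Clec3b the shares were 27.7% and 25.3%. Saa3, Ccl2 and Il6 were more concentrated than that, whereas Tnfaip6, with 42.7% and 46.1%, was closer to Pi16. The top 10% of members for the gene held 98.1% and 95.4% of Saa3, an acute phase protein, 97.5% and 94.0% of Ccl2, a monocyte chemoattractant, and 75.8% and 88.0% of Il6. Saa3 was detected in 21.3% of WT and 39.3% of mutant members and in 44.8% and 48.9% of leukocytes and 9.91% and 31.4% of Pecam1-positive cells. After thinning to 2000 UMIs the shares were 8.88% and 18.0% of members, 26.7% and 32.8% of leukocytes and 4.62% and 13.6% of Pecam1-positive cells, so that the members lay between the other groups. A single member of each library held 26.2% and 50.4% of the Saa3 UMIs. Prg4, the lubricin gene, had 67.6% and 73.7% of its UMIs in the top 10%, although it was detected in 62.7% and 73.8% of members. Pooled levels of Saa3, Ccl2 and Il6 therefore described a few strongly expressing cells in each library.

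Members with and without a detected Dpp4 UMI were set side by side. Dpp4 counts were part of the rule, and a member without Dpp4 had to hold at least 2 Pi16 UMIs, so that the split is a description that draws on values the rule used. Of 4586 genes tested, 32 (0.698%, Dpp4 itself included) were at least 2-fold higher with Dpp4 in both libraries and 4 (0.0872%) were lower. Median depth was 13422 UMIs with Dpp4 and 16076 without it in WT, and 18011 and 18102 in the mutant. Mean depth was 15915 and 17002 UMIs in WT but 23353 and 16494 in the mutant, whose deepest members all had Dpp4, with up to 70529 UMIs against 32670 in those without it. The genes named here were chosen after their values were seen. Tek was at 144 CPM with Dpp4 and 14.1 without in WT, and at 106 and 34.6 in the mutant. Sema3c was at 821 and 293 CPM in WT and 997 and 260 in the mutant, Procr, the protein C receptor, at 186 and 29.0 and at 161 and 40.4, and Anxa3, an annexin, at 445 and 142 and at 335 and 86.6. In the other direction, Igf1, insulin-like growth factor 1, was at 263 CPM with Dpp4 and 839.9 without in WT, and at 551 and 1403 in the mutant. Ntrk2, a neurotrophin receptor, was at 80.2 and 169 CPM in WT and 91.0 and 471 in the mutant. Tek, Procr, Anxa3 and Sema3c were thus highest in the members with Dpp4, and Igf1 and Ntrk2 in those in which no Dpp4 UMI was captured.

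Between the genotypes, most of the members' transcriptome lay within 2-fold. Of 8250 genes with at least 50 UMIs over both libraries, 87 (1.05%) were at least 2-fold higher in the mutant members and 94 (1.14%) at least 2-fold lower, together 181 (2.19%), and the median log2 ratio over all tested genes was 0.05. Another 139 genes passed 2-fold but had 1 cell with over 25% of the UMIs in a library, 10 of them with only 1 to 3 UMIs there, and were not counted. In the genotype comparison, none of 28 universal fibroblast genes, 15 collagens, 18 elastic fibre genes or 9 complement genes was counted in either direction, with median log2 ratios of -0.03, -0.12, 0.03 and -0.03. Of the 87 higher genes 68 were also higher in the mutant's Pi16-negative fibroblasts (27 by 2-fold), and of the 94 lower genes 72 were also lower there (15 by 2-fold). Over all 8250 tested genes 54.7% were higher there (2.52% by 2-fold) and 45.3% lower (1.52% by 2-fold).

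**Figure D4:**
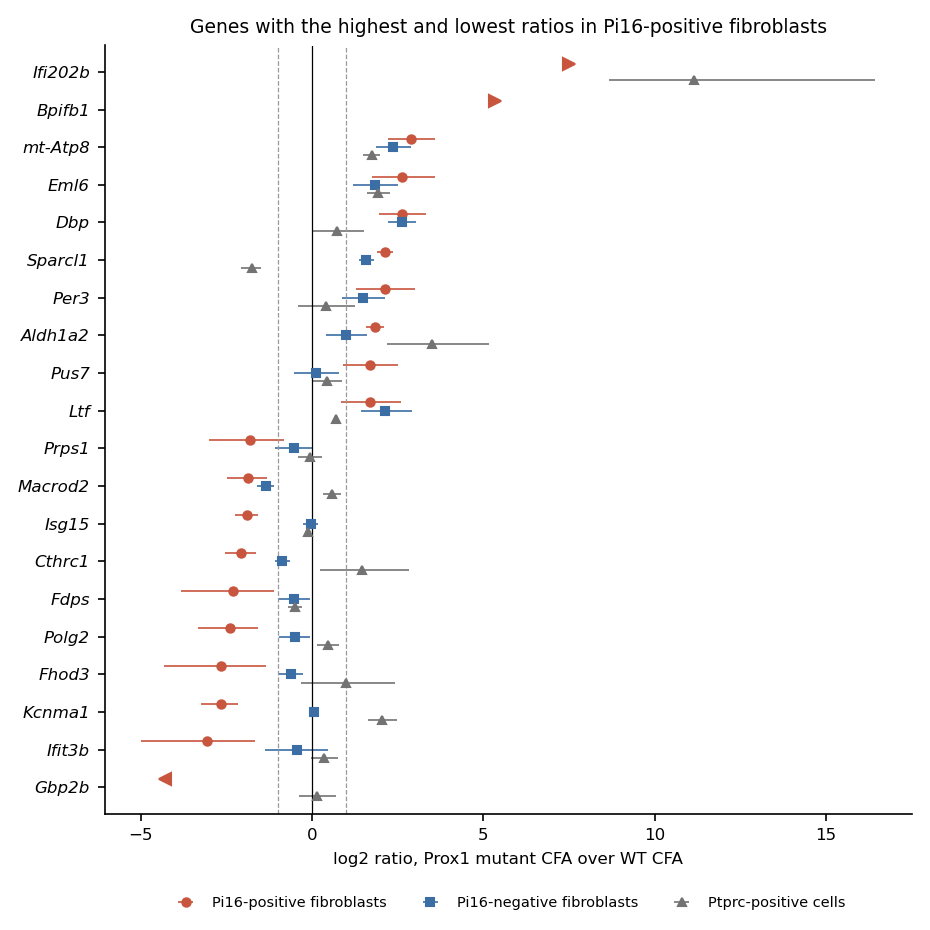
Log2 ratio of pooled CPM, mutant over WT, for the 10 highest and 10 lowest counted genes in Pi16-positive fibroblasts (circles), with the same genes in Pi16-negative fibroblasts (squares) and Ptprc-positive cells (triangles) and 95% intervals for counting error. Arrowheads mark ratios that rest on the floor of 3 UMIs, and dashed lines mark 2-fold; Isg15 and Kcnma1 lie at -1.91 and -2.67 in the members and at -0.04 and 0.06 in the Pi16-negative cells.

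Interferon-induced genes were among those lower in the mutant members. Their products block viral translation, tag proteins or sense nucleic acids, and several carry in their promoters an element bound by interferon-activated factors, whose core was searched on both strands as GAAA, any 2 bases and GAAA. Promoter stretches of 3 of them are shown because the same element recurs in each. They come from RefSeq (GRCm38.p6), in windows from 250 bases before to 50 bases after the annotated start, and capitals mark the matches. Isg15 is from chr4:156200850-156200921 on the minus strand with 3 overlapping matches, Ifit1 from chr19:34640760-34640838 and Ifit3b from chr19:34607744-34607837 on the plus strand with 2 matches each.
Isg15: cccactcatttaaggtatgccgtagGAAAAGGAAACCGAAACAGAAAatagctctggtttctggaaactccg
Ifit1: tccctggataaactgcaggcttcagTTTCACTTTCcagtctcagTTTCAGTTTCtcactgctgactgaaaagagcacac
Ifit3b: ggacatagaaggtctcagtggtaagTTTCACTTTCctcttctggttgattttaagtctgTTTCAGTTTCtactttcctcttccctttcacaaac
The matches began 78 bases before the start in Isg15, 104 in Ifit1 and 188 in Ifit3b. The core occurred in 1131 of 32851 windows (3.44%). Counted by gene, with a match in any window of the gene, it was found in 1079 of 27025 genes (3.99%). It was found in 265 of 6549 tested genes (4.05%) and in 11 of 21 genes of the interferon list (52.4%). Of the genes lower in the mutant members 10 of 73 with a window had it (13.7%), and of those higher 1 of 58 (1.72%). A match of letters is a description and shows no binding.

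Isg15 (chr4:156199424-156200818), a ubiquitin-like modifier, had 677 UMIs in WT members and 83 in mutant members, 244 CPM (226 to 263) against 64.8 CPM (51.6 to 80.4), a log2 ratio of -1.91 (-2.26 to -1.58). It was detected in 94 WT members with up to 67 UMIs in a cell and in 30 mutant members with up to 12, so that the ranges overlapped and the WT cells reached higher. In the Pi16-negative fibroblasts Isg15 was at 123 and 119.9 CPM (log2 ratio -0.04, -0.26 to 0.18), and in leukocytes at 193 and 178 CPM. Whether the ratio in the members differs from that in the Pi16-negative fibroblasts was not tested. Ifit1, which binds viral RNA caps, was at 142 and 50.8 CPM (log2 ratio -1.48), against -0.47 in Pi16-negative cells.

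Over the whole interferon list 2 of 23 tested genes, Isg15 and Ifit1, were lower in the mutant members and none higher, beside 1.14% lower over all tested genes. The list's median log2 ratio was -0.24, with 8 of 23 above 0. Ifit3 and Rsad2 also passed 2-fold, at -1.98 and -1.59, but 1 cell held 26.7% of the mutant Ifit3 UMIs and 37.8% of the WT Rsad2 UMIs. Cxcl9, a chemokine induced by interferon gamma, lay the other way, at 495 CPM in WT and 1101 CPM in mutant members, with 1 cell at 25.1%. Tap1, a peptide transporter of antigen presentation, had a ratio of 0.71 (0.41 to 1.0). The class I genes H2-K1 and H2-D1 had 0.02 and -0.78 and share near-identical sequence, so that their reads could be split between them. Rsad2 had a ratio of 1.30 in Pi16-negative cells, opposite to the members. The interferon genes therefore did not all lie on the same side. Outside that list, Ifit3b (73 and 4 UMIs, log2 ratio -3.08, -4.99 to -1.66) and Gbp2b (127 and 0 UMIs) were lower. Gbp2b, a guanylate-binding protein, was at 45.8 CPM in WT members and at least 19.6-fold lower in the mutant against a floor of 3 UMIs over the group. Gbp2b was also low in the mutant outside the members, at 6.47 and 0 CPM in Pi16-negative fibroblasts and 54.3 and 0.48 CPM in Pecam1-positive cells, while leukocytes had 3.75 and 4.17 CPM. Ifit3b has the near-identical neighbour Ifit3, and Gbp2b belongs to a family of close copies, so that reads could be split or lost between them and these values are uncertain.

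**Figure D5:**
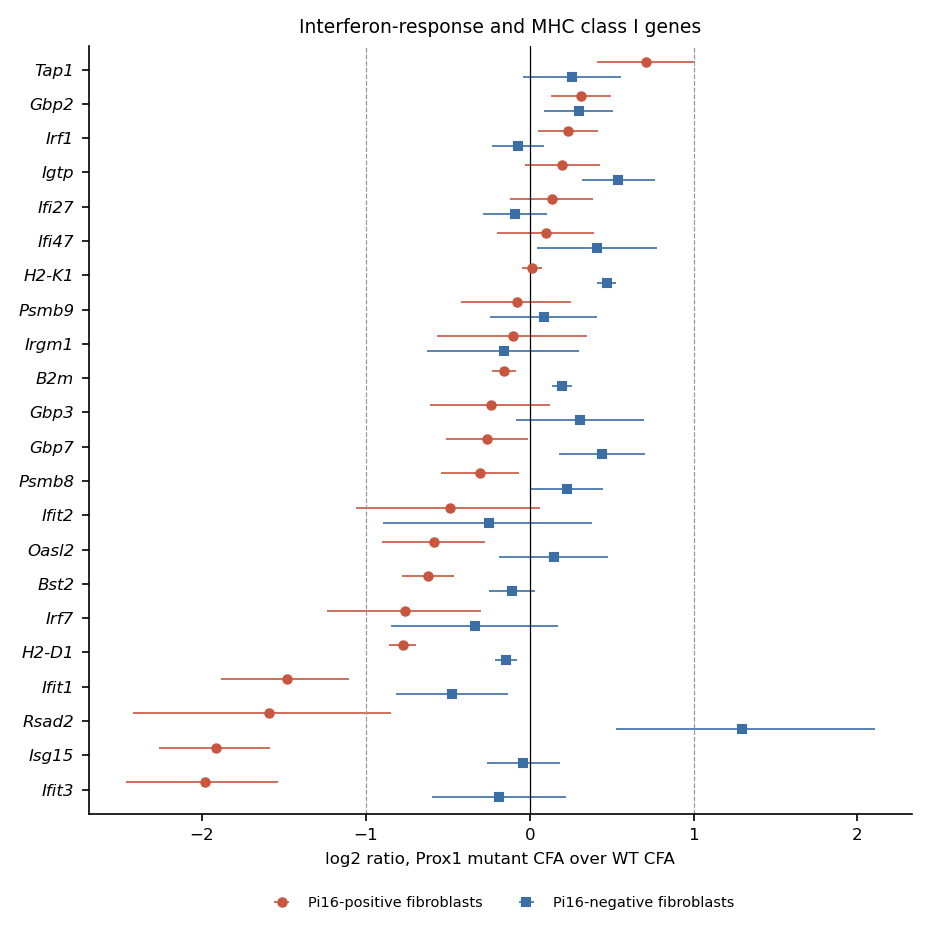
Log2 ratio of pooled CPM, mutant over WT, for interferon-response and MHC class I genes in Pi16-positive (circles) and Pi16-negative (squares) fibroblasts, with 95% intervals for counting error and dashed lines at 2-fold. The ratios in the members run from -1.98 for Ifit3 to 0.71 for Tap1, and Isg15 lies at -1.91 in the members and -0.04 in the Pi16-negative cells.

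The highest ratio belonged to Ifi202b (chr1:173962568-173982744), a cytosolic DNA-binding protein of the interferon-inducible p200 family. It had no UMI in the 169 WT members and 252 UMIs in the mutant members, where 48 of 61 cells held it with a median of 2 and up to 24 UMIs. The other mutant members were at 0 like the WT members, so that the groups overlapped there. At 197 CPM it was at least 182-fold higher, against a floor of 3 UMIs over the group. The same difference was seen in every other group of cells, at 0 and 82.2 CPM in Pi16-negative fibroblasts, 0.0647 and 146 CPM in leukocytes, 0 and 26.7 CPM in Pecam1-positive cells and 0.0207 and 93.3 CPM in all kept cells. Expression of this gene is known to differ between inbred mouse strains, and both libraries are labelled C57BL/6. It has close copies in the same cluster, and genotype and strain background cannot be told apart here.

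Several secreted and signalling genes were higher in the mutant members. Sparcl1, an extracellular matrix protein of the SPARC family, was at 84.4 CPM in WT and 369 CPM in mutant members, a log2 ratio of 2.13 (1.90 to 2.36). It was detected in 33.7% and 73.8% of members, and in 14.2% and 39.3% after thinning to 2000 UMIs. In Pi16-negative fibroblasts the log2 ratio of Sparcl1 was 1.58, and in leukocytes -1.77. Aldh1a2, which makes retinoic acid, was at 72.5 and 258 CPM (1.83, 1.57 to 2.09), with 1.0 in Pi16-negative cells. Fgf7, keratinocyte growth factor, was at 97.8 and 229.6 CPM (1.23, 0.99 to 1.47), detected in 52.1% and 68.9% of members, with -0.01 in Pi16-negative cells. Adam12, a metalloprotease, was 1.04 higher, against -0.31 in Pi16-negative cells. Sparcl1 and Aldh1a2 were thus higher in both fibroblast groups, whereas Fgf7 and Adam12 were past 2-fold in the members and not in the Pi16-negative cells, a contrast that was not tested.

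Some clock-controlled genes were higher in the mutant members. Dbp, a transcription factor driven by the circadian clock, had 25 and 71 UMIs in the members, 9.02 and 55.4 CPM, a log2 ratio of 2.62 (1.94 to 3.34). Per3, a clock repressor, was 2.11 higher, Nr1d1, the nuclear receptor REV-ERB alpha, 1.39 (1.01 to 1.77), and Tef, a relative of Dbp, 1.18. The ratios in Pi16-negative fibroblasts were 2.62, 1.49, 1.17 and 1.57. Npas2, an activator of the clock, was at 184 and 75 CPM (log2 ratio -1.30), with 26.0% of the mutant UMIs in 1 cell. In a clock list that was chosen after these values were seen, 4 of 11 tested genes were higher and none lower, and 6 of 11 were above 0, with a median of 0.62. Over all tested genes 1.05% were higher and the median was 0.05, and the choice of the list restates these values. The labels give no time of day for either library, and its part in the result was not tested.

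Among the genes lower in the mutant members were a channel, matrix genes and a chemokine. Kcnma1, a calcium-activated potassium channel, had 442 UMIs in WT and 32 in mutant members, 160 and 25 CPM, a log2 ratio of -2.67 (-3.24 to -2.16). It was detected in 39.6% and 24.6% of members, with up to 33 and 8 UMIs in a cell. In Pi16-negative fibroblasts Kcnma1 was at 787 and 820 CPM (0.06). Cthrc1, a secreted protein of activated matrix-producing fibroblasts, was at 156 and 36.7 CPM (-2.09, -2.56 to -1.65), with -0.87 in Pi16-negative cells. Mgp, which inhibits calcification, was at 1817 and 753 CPM (-1.27), and Ctsk, a collagen-degrading protease, at 336 and 144 CPM (-1.22). Macrod2, an ADP-ribose hydrolase, was at 82.6 and 22.6 CPM (-1.87), with -1.36 in Pi16-negative cells. Smaller counts stood behind Fdps, an enzyme of isoprenoid synthesis (65 and 6 UMIs), Fhod3, an actin-nucleating formin (68 and 5 UMIs), and Prps1, which makes a nucleotide precursor (69 and 9 UMIs).

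Smaller differences came from single members of the other lists, beside 1.05% higher and 1.14% lower over all tested genes. Of 20 proteases and inhibitors 1 was lower, Ctsk, and of 16 growth factors only Fgf7 was higher and Mdk, midkine, lower (38.6 and 17.2 CPM). Of 19 Wnt, BMP and TGF beta genes 1 was lower, the BMP antagonist Chrdl1 (55.2 and 25.8 CPM, log2 ratio -1.10), whose ratio in Pi16-negative cells was 0.87. Of 17 acute phase and prostaglandin genes 1 was lower, Tnfaip3, which restrains NF-kappa B (35.4 and 15.6 CPM, -1.18). None of 16 stress and immediate-early genes and none of 13 positional transcription factors was counted, with medians of -0.22 and -0.33 beside 0.05 over all genes.

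Ccl19 (chr4:42754525-42756577), a chemokine that guides lymphocytes and dendritic cells carrying CCR7, was at 153 CPM in WT and 46.9 CPM in mutant members, a log2 ratio of -1.71 (-2.12 to -1.31). It was detected in 40.2% of WT members with up to 34 UMIs and in 31.1% of mutant members with up to 15. In the Pi16-negative fibroblasts it was at 19.7 and 43.7 CPM, a ratio of 1.15 (0.68 to 1.62). The WT members therefore stood above the other groups, which lay between 19.7 and 46.9 CPM. Of the 18 tested genes of the cytokine and chemokine list, which holds Ccl19, 1 was lower in the mutant members and none higher. In that list 12 of 18 were above 0, with a median log2 ratio of 0.35, so that Ccl19 lay opposite to most of it. In the lymphatic and vascular list, which holds growth factors and guidance cues for vessels, 2 of 15 tested genes were lower and none higher, beside 1.14% lower and 1.05% higher over all tested genes, with a median of -0.01. They were Vegfb (41.1 and 14.8 CPM) and Sema3a, a repulsive semaphorin (19.5 and 7.03 CPM), whose ratio in Pi16-negative cells was 0.80. Vegfd was at 65.7 and 56.2 CPM.

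Some of the genes higher in the mutant members are made by other cells. S100a8 was at 37.2 and 120.3 CPM (log2 ratio 1.69), S100a9 at 48.7 and 147 CPM (1.59) and Ltf, lactoferrin, at 7.22 and 23.4 CPM (1.70), all abundant in neutrophils. Of the neutrophil list 3 of 5 tested genes were higher, beside 1.05% of all tested genes, and its summed level was 129 and 376 CPM in the members beside 15784 and 24275 CPM in all kept cells. Its most abundant gene was S100a9, and Cxcr2, the neutrophil chemokine receptor, was at 0 in the members of both libraries. Bpifb1, a secretory protein of glandular epithelium, had 0 and 56 UMIs in the members and 0.165 and 2261 CPM in all kept cells, and mutant leukocytes held 209.9 CPM. The part of free RNA in these differences was not tested.

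Red-cell RNA was present in both libraries. The erythroid list summed to 5757 CPM in WT members and 3503 CPM in mutant members, beside 34466 and 88872 CPM in all kept cells, with Hbb-bs most abundant. A single member in each library held 53.1% and 36.2% of its Hbb-bs UMIs, and the median haemoglobin share of a member was 0.0218% and 0.0574%. Macrophage markers summed to 131 and 92.9 CPM, led by Lyz2, with Adgre1 at 0 in both. Endothelial markers summed to 10.8 and 15.6 CPM with Pecam1 at 0 by the rule, and the lymphatic endothelial list to 182 and 139 CPM, nearly all of it Pdpn, which fibroblasts also express, with Mmrn1 at 0 in both. The Schwann cell list summed to 536 and 348 CPM, led by Pmp22 (323 and 329 CPM), which fibroblasts also express. Of its 4 tested genes none was counted as higher or lower in the mutant members. Only 1 of the 4 was above 0, and their median log2 ratio of mutant over WT was -2.68, so that Pmp22 does not stand for the list. The macrophage and neutrophil lists had 1 gene each at 0 in the members of both libraries, Adgre1 and Cxcr2, and their other genes had UMIs. Prox1, of the lymphatic list, had the 2 and 5 UMIs given above.

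The cell cycle list summed to 136 CPM in WT and 360.0 CPM in mutant members, against 132 and 122 CPM in Pi16-negative fibroblasts. Mki67 was detected in 0.592% of WT and 18.0% of mutant members, and in 0.592% and 4.92% after thinning to 2000 UMIs. Its 87 WT UMIs were all in 1 cell, and the mutant members held 64. Top2a had 44 and 122 UMIs, of which 1 cell held 91% and 63%. None of the 4 tested cell cycle genes was counted as higher or lower, and their median log2 ratio was 1.06.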

How the data were processed

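Cells of the TMJ of 1 WT and 1 Prox1 mutant library were sequenced with 10x Genomics 3′ chemistry after digestion and CFA injection. The authors deposited raw UMI counts per gene and barcode for 32285 genes, made with Cell Ranger 7.0.1 on mm10 (GRCm38) per the labels. The libraries held 53517206 and 62446987 UMIs in 5709 and 7846 barcodes. The members and gene lists were chosen with earlier results of these data known, and the clock list after its values were seen.

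UMIs were summed over the members of each library and given as CPM with exact Poisson intervals. Ratios had exact binomial intervals, shares had Clopper-Pearson intervals, and differences between shares had Newcombe intervals. A gene needed 50 UMIs, and a count of 0 was set to a floor of 3 UMIs for ratios. A gene was counted as higher or lower past 2-fold with no cell over 25% of its UMIs. No test was run, since each group had 1 library. Named genes were the markers, the 15 most abundant, and the 10 highest and 10 lowest ratios of each comparison. From each list, a few genes with the highest level and a few with the largest ratio in each comparison were added. Predicted genes were counted but not named, and some other genes are not reported here. Cd34, Ccl2, Il6, Tap1, Tef, Dkk3, Lrig1 and the genes that differed with Dpp4 or answer to glucocorticoids were named outside that rule, after their values were seen.

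Scrublet marked 1 WT and 0 mutant barcodes by its own threshold, too few for that threshold to be relied on. Doublets were not removed from the main results. As an alternative, the 239 WT and 462 mutant barcodes with the highest scores were removed. This left 168 and 61 members, with a share difference of -2.88 points. Genes higher and lower in the mutant members then numbered 88 and 93. How many changed genes the 2-fold rule finds in these cells, and how many unchanged genes it calls, was not tested. Python 3.11.15, numpy 2.4.6, scipy 1.17.1, pandas 2.3.3, scanpy 1.11.5 and matplotlib 3.10.9 were used.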

Additional observations from a re-analysis of the deposited data

Results flagged for a closer look

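Ccl19 and Lrig1 were picked out because mutant and WT differed in opposite directions in the 2 fibroblast groups. Ccl19 had a log2 ratio of mutant over WT of -1.71 in the Pi16-positive fibroblasts and 1.15 in the Pi16-negative ones. Lrig1 (chr6:94604529-94700158), a membrane protein that restrains growth factor receptors, had a ratio of -1.46 (-2.29 to -0.71), with 101 UMIs in WT and 17 in mutant members, and 1.33 (0.78 to 1.90) in the Pi16-negative fibroblasts. Lrig1 was at 36.5 and 13.3 CPM in the members and at 13.6 and 34.2 CPM in the Pi16-negative fibroblasts. With 1 library of each genotype, the difference between the groups was not tested for either gene.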

How the results depend on the processing

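No paired analysis was possible because each genotype was 1 library, and for the same reason no replicate could be left out. Of 75 counts and shares under the alternatives, 56 stayed within 1.5 times or within the interval. The share difference of the members was -1.60 points with the looser rule applied after thinning to 2000 UMIs, without shallower cells. It was -14.3 with fibroblasts as the denominator. Genes higher and lower in mutant members numbered 28 and 44 after thinning to 2000 UMIs, 199 and 166 with a minimum of 20 UMIs, 28 and 26 with 200 UMIs, and 576 and 471 at 1.5-fold. The higher genes were 131 by the mean over cells and 48 after thinning to 4000 UMIs, and the lower genes 166 with each gene's leading cell removed. Genes higher and lower than in Pi16-negative fibroblasts numbered 105 and 81 after thinning to 2000 UMIs, 167 and 139 with a minimum of 200 UMIs, and 567 and 605 at 1.5-fold. Of 1025 values of single genes, 897 stayed the same, 124 moved with the same sign and 4 turned. Pdgfra turned to -0.0047 by the mean over cells and -0.21 after thinning to 4000 UMIs. Ifit3b and Fdps turned to 0.055 and 0.73 after thinning to 2000 UMIs, where the mutant was at 0 and the values rest on the floor of 3 UMIs. Without kept cells over 20% haemoglobin UMIs, 1 of them a member in each library, the planned share difference was -2.67 points. Gene counts without those cells, and the removal of barcodes found in both libraries, were added after seeing the data. Both kept every count within 1.5 times. The mutant values rest on 61 members and the WT values on 169.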

Other observations

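A few genes known to answer to glucocorticoids are given here as values only. They were picked after their values were seen, so that their directions restate the choice and stand for no group. Tsc22d3, which encodes the anti-inflammatory protein GILZ, was at 126 CPM in WT and 46.9 CPM in mutant members, a log2 ratio of -1.43 (-1.85 to -1.03). Zbtb16, a zinc finger transcription factor, was at 668 and 266 CPM (-1.33, -1.50 to -1.16), and Fkbp5, a chaperone of the glucocorticoid receptor, at 260.2 and 129 CPM (-1.01, -1.27 to -0.77). Cebpd, a transcription factor of the acute phase response, was at 909 and 437 CPM (-1.06). In Pi16-negative fibroblasts the ratios of Tsc22d3, Zbtb16, Fkbp5 and Cebpd were -2.30, -1.16, -1.38 and -1.84, and in leukocytes -0.79, -0.13, -0.76 and -0.37. Other known targets had smaller ratios in the members, Sgk1 of -0.81 (-1.25 to -0.39) and Per1 of -0.49 (-1.24 to 0.21).
mt-Atp8 was at 9.02 CPM in WT and 66.4 CPM in mutant members, a log2 ratio of 2.88 (2.22 to 3.58), with 2.37 in Pi16-negative fibroblasts and 1.74 in leukocytes. The gene overlaps mt-Atp6, so that reads could be split between them and its value is uncertain.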
